A study of Homo sapiens with 64 samples.

Results

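The NR4A genes NR4A1, NR4A2 and NR4A3 encode a small group of orphan nuclear receptors, and their RNA was followed in BEAS-2B, a cell line made by immortalising epithelial cells of the human bronchus. The members were found by gene symbol in the platform annotation of an Affymetrix expression array: 13 of 49395 probe sets carried one of the 3 symbols, 7 for NR4A1, 3 for NR4A2 and 3 for NR4A3. Where a gene had several probe sets, the one brightest on average stood for it, which gave 3 of 18132 genes tested. The cells had been kept in serum-free medium overnight and were then left untreated, given the glucocorticoid budesonide at 100 nM, given the long-acting beta2-adrenoceptor agonist formoterol at 10 nM, or given both. Exposure lasted 1, 2, 6 or 18 h, so that 16 groups of 4 arrays made up 64 arrays. Each time had its own untreated group, and all arrays came from this 1 cell line. The labels call the replicates independent determinations but do not say what they share, so a p-value measures no more than how these samples spread.

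NR4A receptors have no known natural ligand that switches them on, and their activity is set largely by how much of them a cell makes. They are immediate early genes: stimuli that raise cyclic AMP or calcium switch on their transcription within the hour through the transcription factor CREB and its coactivators, and the RNA is short-lived. The receptors bind DNA as monomers or dimers, NR4A1 and NR4A2 also pair with the retinoid X receptor, and they are studied in immune cells, dopamine neurons, steroid-producing tissue and metabolism. Formoterol raises cyclic AMP through its receptor, and budesonide acts through the glucocorticoid receptor NR3C1, itself a nuclear receptor.

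In RefSeq's GRCh38.p14 annotation NR4A1 lies at chr12:52022832-52059503, NR4A2 at chr2:156324437-156332721 and NR4A3 at chr9:99821885-99866891. Promoter sequence was matched for NR4A1, at both of its listed starts, and for NR4A3. The windows below hold the 250 bases before each start, plus strand, and are shown because the genes moved together with a drug that raises cyclic AMP. Capitals mark TGACG or its complement CGTCA, the short form of the cyclic AMP response element.
NR4A3, chr9:99821635-99821884: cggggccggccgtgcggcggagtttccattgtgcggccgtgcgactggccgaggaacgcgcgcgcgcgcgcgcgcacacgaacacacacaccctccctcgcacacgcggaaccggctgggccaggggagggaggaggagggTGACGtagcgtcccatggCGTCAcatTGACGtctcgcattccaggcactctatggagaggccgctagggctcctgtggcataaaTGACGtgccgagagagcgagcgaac
NR4A1, first start, chr12:52022582-52022831: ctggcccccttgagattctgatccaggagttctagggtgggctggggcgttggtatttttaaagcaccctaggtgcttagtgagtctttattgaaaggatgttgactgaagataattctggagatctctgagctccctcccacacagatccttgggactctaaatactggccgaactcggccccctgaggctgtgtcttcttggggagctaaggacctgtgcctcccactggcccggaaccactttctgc
NR4A1, second start, chr12:52037465-52037714: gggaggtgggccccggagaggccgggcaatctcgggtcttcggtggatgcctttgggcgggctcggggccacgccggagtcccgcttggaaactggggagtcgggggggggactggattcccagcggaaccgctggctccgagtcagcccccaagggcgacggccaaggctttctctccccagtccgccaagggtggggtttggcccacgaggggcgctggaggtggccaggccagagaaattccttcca
The NR4A3 window holds 4 such matches, which begin 109, 91, 83 and 25 bases before the start, the one at 91 on the minus strand. Of 35116 RefSeq promoter windows of the same length, 21.2% hold at least 1 match and 0.236% hold 4 or more. Neither NR4A1 window holds one. No other NR4A1 sequence was searched, and which start the measured NR4A1 RNA comes from was not tested. On both strands, none of the 3 windows holds the full element TGACGTCA (in 1.65% of windows; it contains the short form), the NR4A monomer site AAAGGTCA (1.05%), the palindromic glucocorticoid response element (0.0114%) or the TATA box TATAAA (10.7%). A match describes letters in the sequence and does not show that a factor binds there.

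Values are log2 expression per probe set, so 1 unit is a factor of 2, and levels of different probe sets cannot be set against each other. Array medians lay between 4.87 and 4.95, and precision is limited by how many arrays there are. Over all probe sets the lower quartile was 3.02 and the median 4.90, and the untreated means of NR4A2 and NR4A3 at every time lay between these marks. Epithelial markers were mixed: 5 of 9 had a mean above the median, among them the keratins KRT18 (10.97) and KRT8 (9.18), while the adhesion molecule EPCAM was at 2.50. Of the other lists 1 of 6 leukocyte markers, 0 of 6 endothelial markers and 3 of 9 fibroblast and smooth muscle markers lay above it. The leukocyte markers ran from 1.97 (PTPRC) to 5.75 (CD68, the 1 above the median). The fibroblast and smooth muscle markers ran from 1.74 (LUM) to 8.35 (COL1A1). For beta-actin the array also holds probe sets at both ends of the transcript, and their difference, which reads RNA quality, is given where it moved with a member.

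Across the 16 groups the members were high only where formoterol was present, and mainly at 1 and 2 h. NR4A1 was highest with formoterol at 1 h (9.46 ± 0.16, SD, n = 4), then with both drugs at 1 h (9.12 ± 0.27), both at 2 h (8.95 ± 1.06) and formoterol at 2 h (8.95 ± 1.24). The arrays of these 4 groups overlapped each other, and all lay above every array of the other 12 groups, whose means ran from 4.96 to 6.16. NR4A2 was highest with formoterol at 1 h (8.75 ± 0.35) and 2 h (7.87 ± 1.07), followed by both drugs at 1 h (7.04 ± 0.51) and 2 h (6.35 ± 1.02). Neighbours in that order overlapped, the groups of 6 h that held formoterol came next at 4.81 ± 0.15 with both drugs and 4.71 ± 0.19 with formoterol, and the other 10 groups had means from 3.52 to 4.21. NR4A3 gave a clean order, formoterol at 2 h (10.76 ± 0.10), formoterol at 1 h (10.00 ± 0.31), both at 2 h (8.99 ± 0.24), both at 1 h (8.30 ± 0.28), formoterol at 6 h (6.13 ± 0.28) and both at 6 h (5.22 ± 0.20), with no overlap between neighbours. Formoterol at 18 h followed at 4.94 ± 0.31 and overlapped the group above it. In bulk RNA, fewer cells making a transcript and less transcript per cell cannot be told apart.

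**Figure D1:**
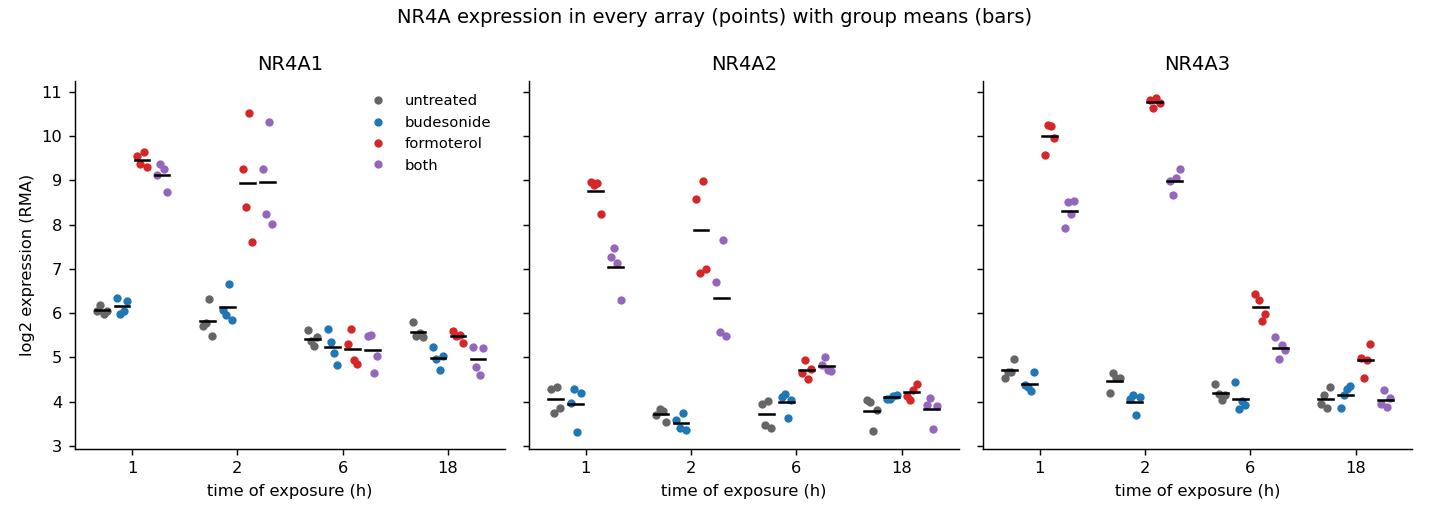
Log2 expression of NR4A1, NR4A2 and NR4A3 (vertical axis) in each of the 64 arrays (points) by time of exposure in h (horizontal axis) and treatment (colours), with the mean of 4 arrays as a bar. The formoterol groups at 1 and 2 h stand far above the untreated ones, and at these times the means with both drugs lie below those with formoterol for NR4A2 and NR4A3, while for NR4A1 at 2 h both means are 8.95.

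In the comparison of formoterol with untreated cells, which addresses the effect of the agonist, all 3 members rose at 1 h and at 2 h, when 1.02% and 2.31% of the 18132 genes did, and at 1 h their median difference was 4.70 beside −0.02 over all genes. The members with a lasting difference were NR4A2 and NR4A3 at 6 h (2.76% of genes rose) and NR4A3 at 18 h (0.469%). Differences are given with the SE of limma's fit to all arrays, and adjusted p-values are Benjamini-Hochberg values over all genes.

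NR4A3, also called NOR1, gave the largest increase of all 18132 genes at both early times. Its untreated arrays at 1 h read 4.54, 4.67, 4.66 and 4.97, and its formoterol arrays 9.57, 10.24, 10.23 and 9.95. The lowest formoterol array lay far above the highest untreated one, and the difference was 5.29 ± 0.16 (39.1-fold, 95% interval 31.5 to 48.5, adjusted p = 1.54e-35). At 2 h the untreated arrays read 4.19, 4.64, 4.54 and 4.53 and the formoterol arrays 10.80, 10.63, 10.86 and 10.74. These 4 formoterol arrays were the tightest of any NR4A3 group, and the difference had grown to 6.28 ± 0.16 (77.9-fold, interval 62.8 to 96.7, adjusted p = 1.14e-39). The step from 1 h to 2 h, 0.99 ± 0.22, passed the test of the difference itself (adjusted p = 0.0119; 0.259% of genes had a step upward). It depended on single arrays, since the adjusted p ran from 0.00732 to 0.0737 with each array left out, and the call was lost without untreated replicate 4 or formoterol replicate 1 at 1 h, or untreated replicate 1 at 2 h. It was 0.72 (adjusted p = 0.373) without the arrays of highest beta-actin 3' minus 5' signal.

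NR4A2, also called Nurr1 and known for its part in dopamine neurons, came next. At 1 h its untreated arrays read 4.28, 3.74, 4.34 and 3.85 and its formoterol arrays 8.96, 8.88, 8.93 and 8.23. The groups did not overlap, and the difference of 4.70 ± 0.30 (25.9-fold, interval 17.1 to 39.4, adjusted p = 3.17e-19) ranked second of all genes. At 2 h the untreated arrays held between 3.55 and 3.84, whereas the formoterol arrays split into 8.58 and 8.99 (replicates 1 and 3) and 6.91 and 6.999 (replicates 2 and 4). Every formoterol array was still above every untreated one, with a difference of 4.15 ± 0.30 (17.8-fold, interval 11.7 to 27.0, adjusted p = 3.68e-17). The step from 1 h to 2 h was −0.55 ± 0.42 and did not pass (adjusted p = 0.989).

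NR4A1, also called Nur77 and the member most studied in lymphocytes, had the smallest of the 3 increases. At 1 h its untreated arrays read 6.05, 6.18, 5.98 and 6.04 and its formoterol arrays 9.55, 9.36, 9.64 and 9.29. The groups were well apart, by 3.40 ± 0.31 (10.5-fold, interval 6.82 to 16.3, adjusted p = 6.76e-13), the seventh largest increase of all genes. At 2 h the untreated arrays read 5.72, 5.79, 6.32 and 5.49 and the formoterol arrays 9.26, 8.40, 10.51 and 7.61. The formoterol arrays spread widely but all stayed above the untreated ones, and the difference was 3.12 ± 0.31 (8.69-fold, interval 5.62 to 13.4, adjusted p = 9.52e-12). Its step from 1 h to 2 h, −0.28 ± 0.44, did not pass (adjusted p = 1).

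Between 2 and 6 h the formoterol effect dropped for every member. It fell by 4.34 ± 0.22 for NR4A3 (adjusted p = 4.78e-23), by 3.36 ± 0.44 for NR4A1 (adjusted p = 1.64e-07) and by 3.15 ± 0.42 for NR4A2 (adjusted p = 2.89e-07), and 1.24% of genes had a step downward. The drops of NR4A3, NR4A1 and NR4A2 ranked 1, 2 and 4 among all genes by size.

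At 6 h the members had parted. NR4A1 in formoterol arrays read 5.30, 5.65, 4.95 and 4.85 against 5.61, 5.37, 5.25 and 5.47 untreated, overlapping, with a difference of −0.24 ± 0.31 (interval −0.87 to 0.39, adjusted p = 0.877). NR4A2 read 4.65, 4.95, 4.50 and 4.74 against 3.94, 3.47, 4.02 and 3.41, without overlap. Its difference of 1.00 ± 0.30 (2.00-fold) passed narrowly (adjusted p = 0.0343), and without any one of untreated replicates 2 and 4 or formoterol replicates 1, 2 and 4 it no longer did, with values from 0.90 to 1.11 and adjusted p from 0.0351 to 0.129 over the 8 arrays left out. NR4A3 was higher in every formoterol array (6.43, 6.30, 5.83 and 5.97) than in any untreated one (4.40, 4.17, 4.03 and 4.14), by 1.94 ± 0.16 (3.84-fold, adjusted p = 4.17e-15).

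At 18 h only NR4A3 still passed. Its formoterol arrays read 4.98, 4.54, 4.93 and 5.30 and its untreated arrays 3.94, 4.14, 3.85 and 4.34. The groups did not overlap and differed by 0.87 ± 0.16 (1.83-fold, adjusted p = 0.00034). From 6 to 18 h its formoterol effect fell by 1.07 ± 0.22 (adjusted p = 0.00192; 1.12% of genes had a downward step). NR4A2 differed by 0.42 ± 0.30 (adjusted p = 0.645) and NR4A1 by −0.10 ± 0.31 (adjusted p = 0.939), and the arrays of both overlapped those of untreated cells.

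**Figure D2:**
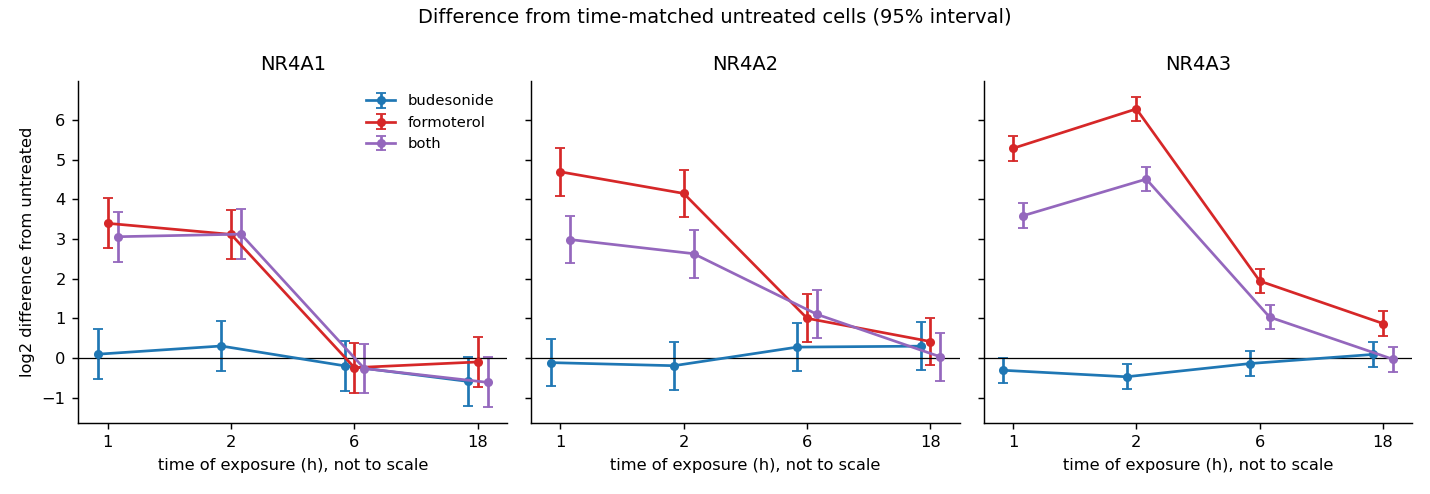
Log2 difference from untreated cells of the same time (vertical axis) against time in h (horizontal axis, not to scale) for budesonide, formoterol and both drugs, with 95% intervals from limma and n = 4 arrays per group. The largest formoterol difference is at 1 h for NR4A1 (3.40) and NR4A2 (4.70) and at 2 h for NR4A3 (6.28). For NR4A1 and NR4A2 the step from 1 to 2 h did not pass. Budesonide alone runs from −0.59 to 0.30.

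In untreated cells 1 of 9 comparisons of a later time with 1 h passed. NR4A3 was lower at 18 h than at 1 h by a difference of −0.64 ± 0.16 (limma, adjusted p = 0.034), as 0.138% of genes were. Its arrays did not overlap, as for 2.53% of genes in this direction. Its adjusted p ran from 0.0299 to 0.166 with each array left out, and 6 of the 8, untreated replicates 2, 3 and 4 at 1 h and 1, 2 and 3 at 18 h, each ended the call when left out. The other NR4A3 probe sets were at 0.09 and −0.03 at 18 h and did not pass. At 6 h NR4A3 was at −0.52 ± 0.16 (adjusted p = 0.2), and NR4A1 at −0.64 ± 0.31 (adjusted p = 0.79), both under an unadjusted p of 0.05 in limma's test. The arrays of both lay below those of 1 h without overlap, as for 1.64% of genes. NR4A1 was at −0.49 ± 0.31 at 18 h, and NR4A2 at −0.34 ± 0.30 at 6 h and −0.26 ± 0.30 at 18 h, none of which passed (adjusted p from 0.652 to 0.962).

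The comparison of budesonide with untreated cells addresses the glucocorticoid on its own. None of the 3 members passed at 1, 2, 6 or 18 h, when 0.998%, 3.94%, 14.2% and 18.3% of genes did (limma; at an unadjusted p under 0.05 only NR4A3 at 2 h was found). NR4A3 at 2 h read 4.05, 4.16, 3.70 and 4.11 with budesonide against 4.19, 4.64, 4.54 and 4.53. Every budesonide array lay below every untreated one, as for 3.82% of genes, and the difference was −0.47 ± 0.16 (adjusted p = 0.0785). Same-numbered arrays deviated together at this time, and with the replicate number within each time as a block NR4A3 passed (adjusted p = 0.0105), as it did without untreated replicate 1 (adjusted p = 0.0359). The other NR4A3 probe sets were at 0.10 and 0.03 in this comparison, and neither passed.

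For NR4A1 at 18 h the result depended on the probe set and the fit. The budesonide arrays read 5.22, 4.96, 4.71 and 5.04 against 5.81, 5.48, 5.55 and 5.45 untreated. The budesonide arrays were all below the untreated ones, as for 10.5% of genes, with a difference of −0.59 ± 0.31 (interval −1.22 to 0.04, adjusted p = 0.22). The same-numbered arrays were paired at 18 h too, and the block gave an adjusted p of 0.0118. Over all 7 NR4A1 probe sets, none of which passed, the differences ran from −0.59 to 0.05 with a median of −0.05, and 3 were above 0. With both drugs at 18 h NR4A1 read 5.23, 4.78, 4.60 and 5.22, again below all untreated arrays, as for 10.9% of genes, with a difference of −0.61 ± 0.31 (adjusted p = 0.184, or 0.00759 with the block), beside a median of −0.08 over the 7 probe sets. The SE pools all groups, and over the 16 groups the SD of NR4A1 ran from 0.08 to 1.24. NR4A2 with budesonide ranged from −0.19 ± 0.30 at 2 h to 0.30 ± 0.30 at 18 h (adjusted p from 0.589 to 1).

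The combination against formoterol addresses what budesonide changes when the agonist is present, and here the members gave different values. NR4A2 and NR4A3 were lower with both drugs at 1 h and at 2 h, 2 of 3 members beside 0.441% and 1.86% of genes, and NR4A3 also at 6 h (7.85%) and 18 h (8.66%). NR4A1 passed at no time. These differences share the formoterol arrays with the comparison against untreated cells.

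NR4A3 with both drugs read 7.93, 8.51, 8.23 and 8.52 at 1 h and 8.99, 8.67, 9.04 and 9.25 at 2 h. All of these lay below the formoterol arrays of the same time. The differences were −1.70 ± 0.16 at 1 h (3.25-fold lower, adjusted p = 5.54e-13) and −1.77 ± 0.16 at 2 h (3.41-fold lower, adjusted p = 4.84e-14). At 6 h the arrays with both drugs read 5.46, 4.97, 5.28 and 5.17, below every formoterol array, by −0.91 ± 0.16 (1.88-fold lower, adjusted p = 5.7e-06). At 18 h they read 3.94, 4.25, 3.88 and 4.08, again without overlap, by −0.90 ± 0.16 (1.87-fold lower, adjusted p = 6.11e-06). With both drugs NR4A3 at 18 h thus differed from untreated cells by −0.03 ± 0.16 (adjusted p = 0.936).

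NR4A2 with both drugs read 7.26, 7.46, 7.14 and 6.30 at 1 h. Its highest array was below the lowest formoterol array, and the difference was −1.71 ± 0.30 (3.27-fold lower, adjusted p = 6.57e-05). At 2 h the arrays with both drugs read 6.70, 5.58, 7.64 and 5.48, so that the groups overlapped. The difference of −1.52 ± 0.30 (2.87-fold lower) passed in the fit of all 64 arrays (adjusted p = 0.000224) and not in a fit of the 8 compared arrays alone (adjusted p = 0.267). At 6 h the difference was 0.10 ± 0.30 (interval −0.50 to 0.70) and at 18 h −0.39 ± 0.30 (interval −0.99 to 0.22), neither of which passed (adjusted p = 0.92 and 0.47).

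NR4A1 with both drugs read 9.12, 9.36, 9.26 and 8.74 at 1 h and 9.26, 8.24, 10.31 and 8.001 at 2 h. Both groups overlapped the formoterol arrays. The differences were −0.34 ± 0.31 at 1 h (interval −0.97 to 0.29, adjusted p = 1, below 0 in 4 of 4 same-numbered pairs) and 0.01 ± 0.31 at 2 h (interval −0.62 to 0.63, adjusted p = 1). At 6 h the difference was −0.02 ± 0.31 (adjusted p = 0.986), and at 18 h −0.51 ± 0.31 without overlap of the arrays (adjusted p = 0.312; the arrays of 9.48% of genes lay lower in this way).

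Against untreated cells the combination still raised all 3 members at 1 and 2 h, when 1.63% and 3.84% of genes rose, and NR4A2 and NR4A3 at 6 h (8.61%). At 1 h the differences were 3.06 ± 0.31 for NR4A1, 2.99 ± 0.30 for NR4A2 and 3.59 ± 0.16 for NR4A3. At 2 h they were 3.13, 2.63 and 4.51, with the same SE, and all 6 early values had adjusted p at or below 2.6e-10. At 6 h NR4A2 stood at 1.10 ± 0.30 (adjusted p = 0.00436) and NR4A3 at 1.03 ± 0.16 (adjusted p = 2.5e-07), while NR4A1 at −0.26 ± 0.31 and all 3 members at 18 h did not pass (adjusted p from 0.184 to 0.967; 10.3% of genes were higher at 18 h). Between 1 and 2 h the effect of both drugs on NR4A3 rose by 0.92 ± 0.22 (adjusted p = 0.00886; 0.982% of genes). Between 2 and 6 h it fell by 3.48 ± 0.22 for NR4A3, by 3.39 ± 0.44 for NR4A1 and by 1.53 ± 0.42 for NR4A2 (adjusted p = 0.00904), where 4.97% of genes fell. The NR4A2 step did not pass without the combination array of replicate 3 at 2 h (−1.10, adjusted p = 0.0634), nor without the arrays of highest beta-actin 3' minus 5' signal (−0.66, adjusted p = 0.419), where the NR4A3 step from 1 to 2 h did not pass either (0.72, adjusted p = 0.289). Between 6 and 18 h NR4A3 fell by a further 1.06 ± 0.22 (adjusted p = 0.000311; 5.15% of genes).

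Against budesonide, the combination raised all 3 members at 1 and 2 h, when 1.2% and 2.83% of genes rose. The differences were 2.96 and 2.82 for NR4A1, 3.10 and 2.83 for NR4A2, and 3.90 and 4.99 for NR4A3. At 6 h NR4A3 passed (1.17 ± 0.16, adjusted p = 6.21e-08; 3.91% of genes were higher). NR4A2 did not (0.83 ± 0.30, limma, adjusted p = 0.0927) although its arrays did not overlap, as for 5.65% of genes in this direction. It passed with the replicate number within each time as a block (adjusted p = 0.0112), where same-numbered arrays were paired. At 18 h none of the 3 passed (adjusted p from 0.926 to 0.999), and 0.651% of all genes did.

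Whether the drugs add up on the log2 scale was tested as an interaction, the effect of both minus the sum of the separate effects. NR4A3 was below additivity by −1.39 ± 0.22 at 1 h (adjusted p = 5.63e-05), −1.30 ± 0.22 at 2 h (adjusted p = 0.000123) and −0.99 ± 0.22 at 18 h (adjusted p = 0.016), where 0.0938%, 0.232% and 0.121% of genes were. The value at 18 h ran from −1.13 to −0.87 with each array left out, and the call was lost without untreated replicate 3, budesonide replicate 4, formoterol replicate 4 or combination replicate 3. It was also lost in a fit of the compared arrays alone (adjusted p = 0.0607), on the linear scale (adjusted p = 0.979), with probe sets averaged (−0.42, adjusted p = 0.22) and in both other probe sets (−0.15 and −0.13). At 6 h NR4A3 was at −0.77 ± 0.22 (adjusted p = 0.0866; 0.276% of genes were lower), and passed without formoterol replicate 3 (adjusted p = 0.0441). NR4A2 was at −1.59 ± 0.42 at 1 h (adjusted p = 0.164) and −1.33 ± 0.42 at 2 h (adjusted p = 0.274). At 2 h, where the arrays were paired, the block within each time gave NR4A2 an adjusted p of 0.0225, and leaving out formoterol replicate 2 or combination replicate 3 also made it pass (lowest adjusted p 0.0118). NR4A1 lay between −0.44 ± 0.44 at 1 h and 0.17 ± 0.44 at 6 h and did not pass (adjusted p from 0.99 to 1).

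The spread at 2 h followed the replicate number. In NR4A1 and NR4A2 the arrays of replicates 1 and 3 lay above those of replicates 2 and 4 both with formoterol and with both drugs, with SDs from 1.02 to 1.24, whereas NR4A3 in the same arrays had SDs of 0.10 and 0.24. Taken within a replicate number, the combination minus formoterol was −1.88, −1.33, −1.35 and −1.52 for NR4A2, a spread far below that of either group. The same differences were 0.00, −0.17, −0.20 and 0.39 for NR4A1, on both sides of 0, and −1.81, −1.96, −1.82 and −1.49 for NR4A3. The beta-actin 3' minus 5' signal at 2 h was 1.30 to 1.51 in replicate 1 and 1.35 to 1.61 in replicate 3, against 0.757 to 0.943 in replicate 2 and 0.496 to 1.11 in replicate 4. At 2 h this signal moved with the values of NR4A1 and NR4A2. At 1 h it was 1.52 to 1.73 in replicate 1 and 0.671 to 1.24 in replicates 2 to 4. There replicates 1 to 4 with formoterol read 9.55, 9.36, 9.64 and 9.29 for NR4A1. For NR4A2 they read 8.96, 8.88, 8.93 and 8.23. The part of the signal in the values of either time was not tested.

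**Figure D3:**
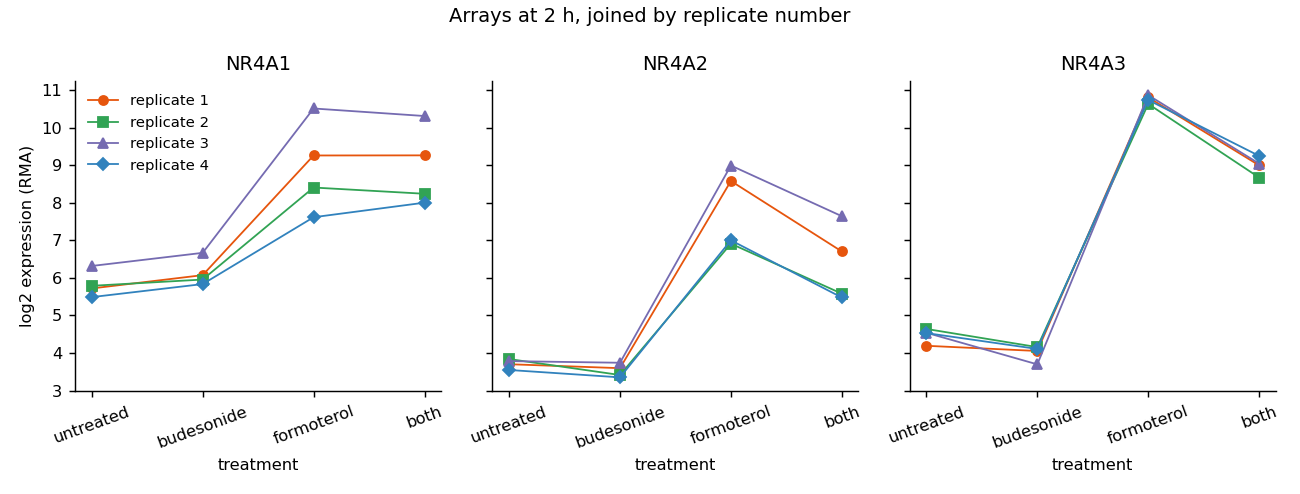
Log2 expression at 2 h (vertical axis) in the 4 treatments (horizontal axis), with arrays of the same replicate number joined by a line. Replicates 1 and 3 lie above 2 and 4 for NR4A1 and NR4A2 in both groups with formoterol, the lines of NR4A2 and NR4A3 slope down from formoterol to both drugs, and those of NR4A1 stay near level.

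Whether budesonide changed 1 member more than another in the presence of formoterol was tested on the difference between a pair of members within each array. Exact two-sided permutation tests of 4 arrays against 4 were run for 3 pairs at 4 times, 12 tests chosen after the data were seen, and the smallest p this design can give is 0.0286. NR4A2 minus NR4A1 was lower with both drugs than with formoterol by a difference of −1.37 at 1 h and −1.53 at 2 h, without overlap (exact permutation p = 0.0286 each, 0.0571 adjusted over the 12). NR4A3 minus NR4A1 differed by −1.36 at 1 h and −0.89 at 6 h in the same way (exact permutation p = 0.0286, adjusted 0.0571), and by −1.78 at 2 h with overlapping arrays (exact permutation p = 0.0857, adjusted 0.147). Between same-numbered arrays at 2 h that last difference was −1.81, −1.79, −1.62 and −1.88, below 0 in 4 of 4 pairs, and the exact sign-flip permutation test gave p = 0.125, the smallest that 4 pairs allow. The paired tests were also added after the data were seen, for the same 12. Same-numbered arrays deviated together in this comparison at 1 and 2 h. For NR4A2 minus NR4A1 at both times, and NR4A3 minus NR4A1 at 1 h, 4 of 4 pairs were below 0. The sign-flip permutation test gave each p = 0.125. NR4A3 minus NR4A2 differed by −1.01 at 6 h and −0.52 at 18 h (exact permutation p = 0.0286, adjusted 0.0571). The same pair differed by 0.01 at 1 h (exact permutation p = 1) and −0.25 at 2 h (exact permutation p = 0.743). None of the 12 passed an adjusted p of 0.05.

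The probe sets of a gene ran in the same direction at 1 h but differed widely in size. For NR4A1, 6 of 7 probe sets rose with formoterol at 1 h and at 2 h, where 0.761% and 1.63% of all 49395 probe sets did, with differences from 0.92 to 3.40 at 1 h. The exception, 11760979_at, had a mean of 2.55, below the lower quartile, and differences of 0.05 and 0.12. All 3 NR4A2 probe sets rose, by 4.57 to 5.04 at 1 h and 3.50 to 4.65 at 2 h. At 6 h, adjusted over all probe sets, 11725632_at passed (1.17) and the one used, 11725631_a_at, did not (1.00, adjusted p = 0.0614). For NR4A3 the probe set used, 11729058_s_at, gave 5.29 and 6.28, 11741458_a_at gave 4.54 and 5.10, and 11741705_at gave 1.46 at 1 h and 0.44 at 2 h (adjusted p = 0.141). Each of the 3 NR4A3 probe sets is annotated to a different transcript record of the gene. The step of 11741705_at from 1 to 2 h went the other way (−1.02, limma, adjusted p = 0.0147), and its mean over all arrays was 3.48. At 6 h and 18 h, where 1.8% and 0.237% of all probe sets rose, the NR4A3 difference was called in 11729058_s_at alone. The other probe sets gave 0.44 and 0.13 at 6 h and 0.11 and 0.19 at 18 h. Both were dim in untreated cells at these times. There 11741458_a_at had means of 2.78 and 2.67, below the lower quartile of 3.02, and 11741705_at had 3.29 and 3.22, little above it.

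The lower level with both drugs than with formoterol was called in all 3 NR4A2 probe sets at 1 h (−1.99 to −1.24) and 2 h (−1.83 to −1.52), where 0.306% and 1.15% of all probe sets were lower. It was called in 3 of 3 NR4A3 probe sets at 1 h, 2 of 3 at 2 h, and 1 of 3 at 6 h (5.1%) and 18 h (6.11%). In NR4A1 limma called it in 0 of 7 at any time, and 0 of 7 at an unadjusted p under 0.05. At 1 h all 7 differences were below 0, from −0.34 to −0.03, and at 2 h all 7 were above 0, from 0.01 to 0.42.

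**Figure D4:**
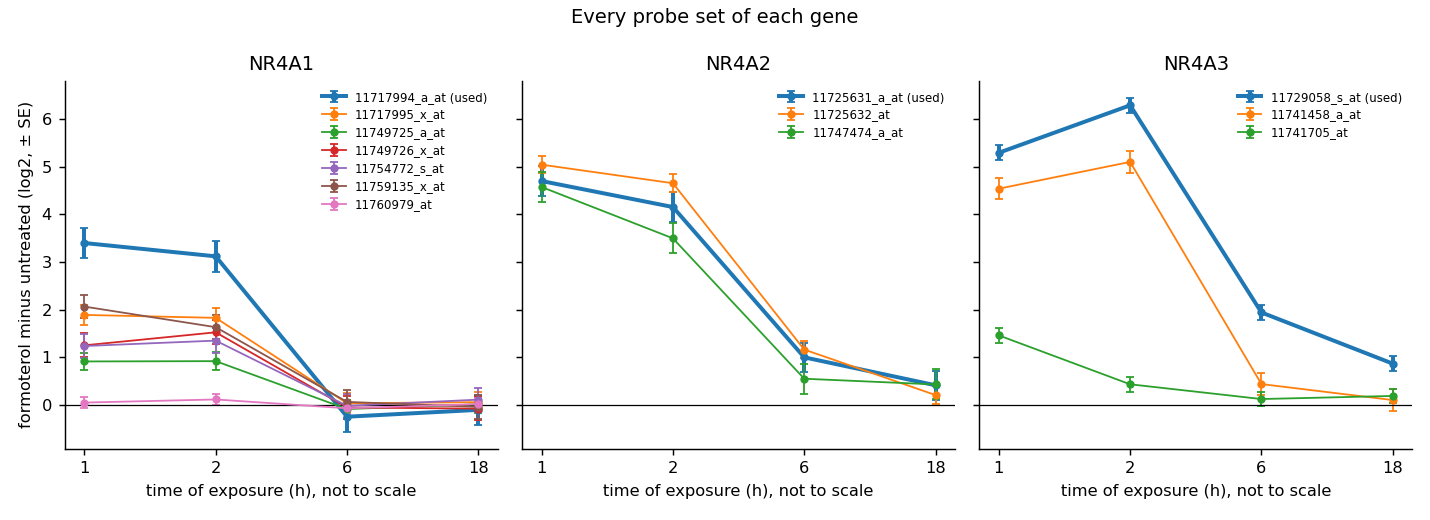
Formoterol minus untreated (log2 ± SE, vertical axis) for each of the 13 probe sets against time in h (horizontal axis, not to scale), with n = 4 arrays per group and the probe set used for each gene drawn thick. Sizes at 1 h run from 0.05 to 3.40 for NR4A1, 4.57 to 5.04 for NR4A2 and 1.46 to 5.29 for NR4A3.

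The other nuclear receptors were compared with the members by the size of their differences. Of the 45 further family members listed, 36 were analysed here. With formoterol 0 passed in limma's test at 1 h (0 also at an unadjusted p under 0.05). Over all genes 1.34% passed, so 0 of 36 does not set this list apart. Their differences then lay between −0.31 (PPARG, the fat-cell regulator) and 0.25 (RXRA, a partner of NR4A1 and NR4A2). At 2 h 1 of 36 rose, the glucocorticoid receptor NR3C1 (0.48 ± 0.08, adjusted p = 3.5e-05), beside 2.31% of all genes, and the list's median was −0.04 beside 0.00 over all genes. At 6 h NR3C1 rose (0.32 ± 0.08, adjusted p = 0.0116), beside 2.76% of all genes, and 3 fell, beside 2.06%, the vitamin D receptor VDR (−0.70), the thyroid hormone receptor THRB (−0.50) and the mineralocorticoid receptor NR3C2 (−0.36). At 18 h 0 passed in limma's test (5 at an unadjusted p under 0.05), beside 1.11% of all genes. The smallest NR4A difference at 1 h, 3.40, lay far outside the range of the 36. In the combination against formoterol 0 of 36 passed in limma's test at 1 h (1 at an unadjusted p under 0.05). This was beside 1.27% of all genes and does not set the list apart either. The differences lay within −0.21 to 0.24. At 2 h 3 were higher, beside 2.29% of all genes, and 1, NR3C1 (−0.65 ± 0.08), lower, beside 1.86%. Counting both directions, 10 of 36 passed at 6 h, beside 13.4% of all genes, and 9 of 36 at 18 h, beside 17.6%. RXRA differed with formoterol by 0.02 at 2 h and did not pass at any time.

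**Figure D5:**
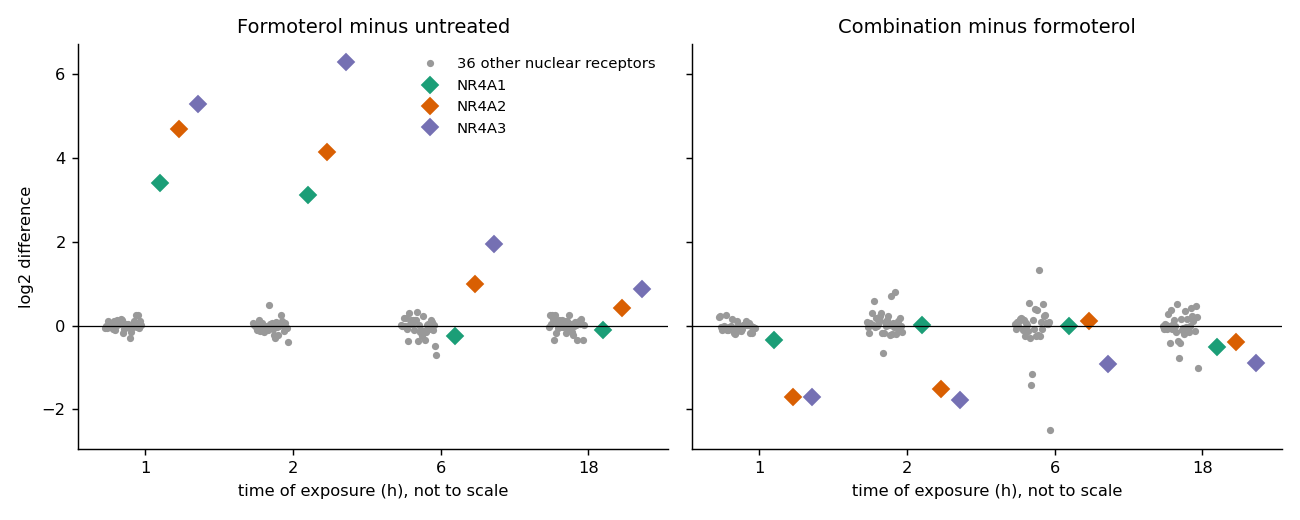
Log2 differences (vertical axis) of NR4A1, NR4A2 and NR4A3 (diamonds) and of 36 other nuclear receptors (grey points) by time in h (horizontal axis, not to scale), for formoterol minus untreated on the left and the combination minus formoterol on the right. The 36 stay within −0.39 and 0.48 at 1 and 2 h on the left, and at 6 h on the right VDR reaches −2.50, lower than any NR4A member.

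Some genes that carry the cyclic AMP signal passed from 2 h on. Of 24 genes of the signal and of CREB's machinery, 21 were analysed here. With formoterol 0 passed in limma's test at 1 h (1 at an unadjusted p under 0.05), beside 1.34% of all genes. At 2 h 2 rose, beside 2.31% of all genes. They were the CREB family member CREM (0.83 ± 0.11) and the kinase SIK2 (0.68 ± 0.10), which restrains CREB's coactivators. At 6 h 4 rose, beside 2.76% of all genes, SIK2 (0.63), CREM (0.55), SIK3 (0.37) and the adenylyl cyclase ADCY9 (0.34), and at 18 h the kinase subunit PRKAR2B was lower (−0.49), as 0.64% of genes were. The list's median stayed between −0.03 and 0.04, with all genes between −0.02 and 0.02. With both drugs CREM was lower than with formoterol at 1 h (−0.46 ± 0.11, adjusted p = 0.00616) and 2 h (−0.74 ± 0.11, adjusted p = 2.84e-07).

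Other genes known to be induced by cyclic AMP rose beside the NR4A genes. Of 23 listed, 20 were analysed here, and 10, 14, 11 and 7 rose with formoterol at 1, 2, 6 and 18 h, beside 1.02%, 2.31%, 2.76% and 0.469% of all genes, with none lower and medians of 0.91, 1.28, 0.53 and 0.36. The list was drawn up with earlier results of these data known, so its direction is no independent evidence. In the combination against formoterol its members split: 4 were higher and 3 lower at 1 h, beside 0.827% and 0.441% of all genes, and 5 and 5 at 2 h, beside 2.29% and 1.86%. The cytokine IL6 (−2.69 at 1 h and −3.63 at 2 h), the phosphodiesterase PDE4B (−1.91 and −2.90) and CREM were lower at both times, as NR4A2 and NR4A3 were. The prostaglandin synthase PTGS2 (3.44 and 3.47) and the clock gene PER1 (2.14 and 2.39) were higher. The neurotrophin BDNF was at −0.15 at 1 h, which did not pass, and lower at 2 h (−0.42, adjusted p = 0.0361).

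Among partners and regulators of the NR4A receptors, 20 of 24 listed genes were analysed here. With formoterol MEF2D, a factor that drives NR4A1 transcription in lymphocytes, rose at 1 h (0.44 ± 0.09, limma, adjusted p = 0.00181) and at 2 h (0.52 ± 0.09). Of all genes 1.02% and 2.31% rose at these times, and 2.76% at 6 h. The calcium-regulated factor NFATC2 rose at 2 h (1.49 ± 0.20) and 6 h (1.53 ± 0.20). At 6 h the deacetylase HDAC4 (0.50) and MEF2D (0.31) were higher, and the deacetylase HDAC5 was lower (−0.67), as 2.06% of all genes were. At 18 h 0 of 20 passed (4 at an unadjusted p under 0.05 in limma's test), beside 1.11% of all genes. With both drugs MEF2D was below its formoterol level at 1 h (−0.42 ± 0.09, limma, adjusted p = 0.00343) and 2 h (−0.58 ± 0.09, adjusted p = 3.23e-06), as 0.441% and 1.86% of all genes were.

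None of the genes described in other tissues as NR4A targets passed with formoterol. Of 25 listed, 24 were analysed here, and in limma's test 0 passed at 1, 2, 6 or 18 h, with medians from −0.02 to 0.03. In the same test 2, 4, 3 and 1 had an unadjusted p under 0.05. Over all genes 1.34%, 4.6%, 4.81% and 1.11% passed, so 0 of 24 does not set this list apart. The pyruvate dehydrogenase kinase PDK4, whose untreated means of 2.65 to 2.78 lay below the lower quartile, rose with budesonide by 2.52, 3.56, 3.39 and 2.29 at 1, 2, 6 and 18 h, comparisons in which no NR4A member passed in the fit without the block. Budesonide also raised the muscle enolase ENO3 at 18 h (0.36, adjusted p = 0.0215).

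The members resembled each other over the groups. Pearson's r over the 16 group means, a description without a test since the groups share untreated levels and drugs, was 0.97 for NR4A2 with NR4A3, 0.92 for NR4A1 with NR4A3 and 0.90 for NR4A1 with NR4A2. Among 429 genes whose group means spanned at least 2 log2 units, the profiles most like NR4A3 were NR4A2 (0.97), BDNF (0.97), the vasopressin-induced gene AVPI1 (0.94), the transcription factor TBX3 (0.94) and the zinc finger gene ZNF331 (0.93). Those most like NR4A2 were NR4A3 (0.97), ZNF331 (0.96), BDNF (0.95), the chemokine CXCL2 (0.93) and the arrestin-family gene ARRDC3 (0.93). NR4A1 was most like the small GTPase RHOB (0.95), TBX3 (0.94), TSC22D1 (0.94), the stress-response factor ATF3 (0.94) and CXCL2 (0.93), while NR4A3 and NR4A2 were in places 7 and 10. With formoterol at 1 h CXCL2 differed from untreated cells by 3.51, ZNF331 by 3.07, RHOB by 2.44, BDNF by 1.48 and TBX3 by 1.58.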

How the data were processed

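The deposited values are log2 expression of 49395 probe sets on 64 arrays. The authors made them with RMA, per the submitters' processing notes; its version, and whether all arrays were normalized together, are not given in the sources used here. Groups, replicate numbers, doses and times come from the labels. Of the probe sets 44994 carried 1 gene symbol, 1832 several and 2569 none; only the first were used, and the brightest on average over the arrays stood for each of 18132 genes.

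The values were fitted with limma 3.58.1 in R 4.3.3 (lmFit, contrasts and eBayes with an intensity trend) as 16 groups with no block, which left 48 residual degrees of freedom, with Benjamini-Hochberg adjustment over all genes and a threshold of 0.05. A second fit covered all probe sets. The procedure was tested on simulated data. Pairs of members were compared with exact permutation tests (scipy 1.17.1).

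The text names all 3 members, the 5 genes most like each (Pearson's r over group means, among genes spanning at least 2 log2 units), per list and time up to 4 called genes with the largest and smallest change, and NR3C1, RXRA and CREM. ENO3, PPARG at 1 h and the receptors changed by budesonide alone were named after their values were seen. The members and lists were chosen with earlier results of these data known. The differences between members and between same-numbered arrays were added after seeing the data.

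Same-numbered arrays deviated together (every pair's correlation over 0.1) in 13 of 33 comparisons, among them formoterol against untreated at 1 and 2 h and budesonide against untreated at 2 and 18 h; the labels do not say what a number shares. The replicate number as a block, other scalings, single probe sets and left-out arrays were tried as alternatives. RefSeq promoter windows were matched for 2 of 3 genes.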

Additional observations from a re-analysis of the deposited data

Results flagged for a closer look

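One array stood apart from its group. NR4A2 with formoterol at 1 h read 8.23 in replicate 4, and the gap of 0.65 to the next array was a share of 0.899 of the group's range, above Dixon's 95% critical value for 4 arrays. It was 1 of 48 groups so tested, and chance alone does this in about 1 in 20. Without it, the difference of NR4A2 from untreated cells kept its call.

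Several effects differed between times by a test of the difference. Between 2 and 6 h the formoterol effect changed by −3.36 for NR4A1, −3.15 for NR4A2 and −4.34 for NR4A3. Over the same step the effect of both drugs changed by −3.39 for NR4A1, −1.53 for NR4A2 and −3.48 for NR4A3. NR4A3 was also called in the steps on either side, by 0.99 with formoterol and 0.92 with both drugs from 1 to 2 h, and by −1.07 and −1.06 from 6 to 18 h.

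The effect of formoterol on NR4A3 differed with and without budesonide, by −1.39 at 1 h, −1.30 at 2 h and −0.99 at 18 h. The steps from 1 to 2 h went the other way in the probe set 11741705_at.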

How the results depend on the processing

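Of 2256 alternative values for the members 2147 kept their direction and side of the threshold; centring the arrays, leaving out dim genes and dropping the intensity trend changed none of 99 results. Where neither value was called, the sign changed in 65 single probe set values, 31 with an array left out, 6 with probe sets averaged and 1 without the arrays of highest actin signal. The causes were not tested. The number of arrays limits every value. Signals near the lower quartile carry little information, such as those of 11760979_at and, in untreated cells, of 11741458_a_at and 11741705_at.

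With the replicate number as a block, NR4A3's interaction at 6 h passed (−0.77, adjusted p = 0.0442). With the block within each time NR4A3 passed with budesonide at 2 h (−0.47) and in the interaction at 6 h (−0.77), NR4A1 at 18 h with budesonide (−0.59), with both drugs (−0.61) and in the combination against formoterol (−0.51), and NR4A2 in the combination against budesonide at 6 h (0.83), the interactions at 1 h (−1.59) and 2 h (−1.33) and the combination's step from 6 to 18 h (−1.07). The pairing changed no other call of the members.

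In fits of the compared arrays alone, NR4A1 passed with budesonide (−0.59), with both drugs (−0.61) and against formoterol (−0.51) at 18 h and in untreated cells from 1 to 6 h (−0.64), as did NR4A2 against budesonide at 6 h (0.83) and from 6 to 18 h with both (−1.07). Lost were NR4A2 against formoterol at 2 h (−1.52), NR4A3's interaction at 18 h (−0.99) and its untreated step to 18 h (−0.64; also with quantile normalization repeated, −0.61). Without the arrays of highest actin signal NR4A1 passed at 18 h with budesonide (−0.59), with both (−0.62) and against formoterol (−0.57), and NR4A2 against budesonide at 6 h (0.86), in the interaction at 1 h (−1.67) and from 6 to 18 h with both (−1.10). Lost were NR4A3's untreated step (−0.66) and its steps from 1 to 2 h with formoterol (0.72) and both (0.72), and NR4A2's step from 2 to 6 h with both (−0.66). On the linear scale NR4A2's interaction at 1 h passed (−300.7 units) and NR4A3's at 18 h did not (−15.8).

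With probe sets averaged NR4A2 passed against budesonide at 6 h (0.82), in the interaction at 2 h (−1.46) and from 6 to 18 h with both (−1.04), and NR4A3 did not in the interaction at 18 h (−0.42), the untreated step (−0.19), the formoterol steps from 1 to 2 h (0.18) and 6 to 18 h (−0.45) and the combination's from 6 to 18 h (−0.34). With 11725632_at NR4A2 passed in the same 3 results at 1.13, −1.43 and −1.47, and with 11747474_a_at it did not pass at 6 h with formoterol (0.55) or both (0.65) or from 2 to 6 h with both (−1.01). With 11760979_at NR4A1 lost its calls with formoterol at 1 h (0.055) and 2 h (0.12), both drugs (0.026 and 0.22), the combination against budesonide at 2 h (0.18) and the steps from 2 to 6 h (−0.18 and −0.20), and was reversed against budesonide at 1 h (−0.033).

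With 11741458_a_at NR4A3 did not pass with formoterol at 6 h (0.44) and 18 h (0.11), both drugs at 6 h (0.035), the combination against formoterol at 6 h (−0.41) and 18 h (−0.17), against budesonide at 6 h (0.11), the interaction at 18 h (−0.15), or the steps of formoterol (0.56 and −0.34) and both drugs (0.99 and −0.10) from 1 to 2 and 6 to 18 h, and its untreated step was reversed (0.094). With 11741705_at it did not pass with formoterol at 2, 6 and 18 h (0.44, 0.13 and 0.19), both drugs at 2 h (0.15), against formoterol at 2, 6 and 18 h (−0.29, −0.16 and −0.10), against budesonide at 1 and 2 h (0.45 and 0.11), the interactions at 2 and 18 h (−0.32 and −0.13), the untreated step (−0.034) or the steps from 2 to 6 h (−0.31 and −0.18). That probe set was reversed with both drugs at 6 h against untreated (−0.034) and budesonide (−0.13), and in the steps from 1 to 2 h (−1.02 and −0.46) and 6 to 18 h (0.065 and 0.13).

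Leaving out each array changed a call in 8 of 99 results. NR4A3 then ranged from −0.73 to −0.56 for the untreated step, 0.85 to 1.08 for the formoterol step from 1 to 2 h, −0.57 to −0.37 with budesonide at 2 h, and −0.87 to −0.64 and −1.13 to −0.87 for the interactions at 6 and 18 h. NR4A2 ranged from 0.90 to 1.11 with formoterol at 6 h, −1.76 to −0.95 for the interaction at 2 h and −1.82 to −1.10 for the combination's step from 2 to 6 h.

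Counts over all genes moved by over 1.5 times in 85 of 641 alternatives, mostly upward with the block. The 243, 834, 873 and 201 genes called with formoterol at 1, 2, 6 and 18 h ranged from 196 to 557, 470 to 1637, 628 to 1910 and 77 to 965.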

Other observations

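With budesonide at 6 h 6 of 36 other nuclear receptors and 0 of 3 NR4A members passed, beside 14.2% of all genes. Neither count sets its list apart from that share. The receptors named here were picked after their values were seen. At 6 h VDR fell by 2.17 and NR3C1, the receptor of budesonide itself, by 1.05, while the mineralocorticoid receptor NR3C2 fell by 0.98 and PPARG rose by 1.42. With both drugs against untreated cells 11 of 36 passed at 6 h, beside 18.6% of all genes, and 5 of 36 at 2 h, beside 9.49%. At 6 h VDR then fell by 3.21, NR3C2 by 1.53 and NR3C1 by 1.11, and PPARG rose by 0.98. RORA, a receptor linked to the circadian clock, rose by 1.05 with both drugs at 2 h.

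Over all 16 groups the replicate numbers stood at different heights for NR4A1. Replicate 1 lay above its group's mean in 13 of 16 groups and replicate 4 in 4 of 16, with mean deviations of 0.16 and −0.26. For NR4A2 replicate 1 lay above in 12 of 16, and for NR4A3 replicate 4 in 10 of 16. Replicate 1 also had the highest beta-actin 3' minus 5' signal at 1 h (1.52 to 1.73), 6 h (1.90 to 2.21) and 18 h (1.90 to 2.10). At 2 h the highest value was in replicate 3 (1.61). NR4A3 lay above its group's mean in 8 of 16 groups in replicate 1. The cause of the different heights was not tested.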
